A study of Mus musculus with 6 samples.

Results

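Genes of the NF-kappaB system were followed in hind limb skeletal muscle of mice: the 5 genes for its DNA-binding subunits (Nfkb1, Nfkb2, Rel, Rela and Relb), 4 genes for I-kappaB family proteins (Nfkbia, Nfkbie, Nfkbiz and Bcl3) and Tnfaip3, which encodes A20. The 10 genes were chosen by symbol for their role, with earlier results of these data known. All 10 were found among the 25572 genes of the table. The study took muscle 3 days after surgery for hind limb ischaemia (HLI), a loss of blood flow to the limb, and compared 3 mice lacking histidine decarboxylase, the enzyme that makes histamine (Hdc-/-, HDCKO), with 3 wild-type mice (WT). All 6 muscles, controls included, carried the ischaemia label, so that every difference is one between injured muscles of the 2 genotypes. The sources used here do not give strain, age, the muscle taken or the part of Hdc that was deleted, and sex is not labelled. RNA sequencing gave 1 library per mouse, in FPKM, which scales fragments by gene length and library size. The replicates are separate mice.

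NF-kappaB proteins are dimers of the Rel family that wait in the cytoplasm of resting cells, held there by I-kappaB proteins. Signals from cytokine and pattern receptors activate the I-kappaB kinases, the I-kappaB protein is degraded, and the dimer enters the nucleus and starts transcription of inflammatory genes. Among these genes are its own inhibitors, which close a negative feedback loop. In injured muscle the system is active in infiltrating myeloid cells, in endothelial and stromal cells and in muscle fibres themselves.

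The libraries differed widely beyond these genes. Each held 19169 to 21565 genes above 0 FPKM, and the number of fragments is not given in the table. Hdc measured 1.22, 2.46 and 2.52 FPKM in the HDCKO libraries and 7.49 to 8.17 FPKM in WT (adjusted p = 0.0033), a limited check of the labels since the deleted part of the gene is unknown. Of 13288 genes tested, 42.6% were called lower in HDCKO and 17.8% higher, and a typical gene stood at a log2 change of -0.50. Summed muscle fibre markers (12 genes, 12 called higher) ran from 48837 to 89457 FPKM in HDCKO and from 420 to 1624 in WT. Summed neutrophil markers (9 of 10 tested, 9 called lower) ran from 32.5 to 70.7 FPKM in HDCKO and from 2417 to 14355 in WT. Macrophage markers (12 genes, 6 called lower) summed to 328, 969 and 2208 FPKM in HDCKO mice 1, 2 and 3 and to 2302 to 3012 in WT, endothelial markers (6 of 10 called lower) to 206 to 310 against 416 to 617, and fibroblast markers (4 of 10 called lower) to 1627 to 2440 against 2844 to 5421. HDCKO mice 2 and 3 also stood apart in B cell markers, which summed to 0.750, 77.5 and 234 FPKM in HDCKO mice 1, 2 and 3 and to 1.34 to 2.35 in WT, and in T and NK cell markers, with 0.507, 39.4 and 67.5 against 1.81 to 3.02 (0 genes of either list called). Dendritic cell markers (1 of 7 tested called higher) summed to 6.22, 26.7 and 48.0 FPKM against 21.4 to 24.0. No marker was at 0 in all 3 libraries of a group. In such whole-muscle RNA, fewer cells of a type and less RNA per cell cannot be told apart, and the part of these shifts in the results below was not tested. Whether the samples of HDCKO mice 2 and 3 held lymphoid tissue beside muscle was not tested either.

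Several members carry the kappaB motif in their promoters. RefSeq promoters (build GRCm38.p6) were at hand for 7 of the 10 members, all but Nfkb1, Relb and Nfkbiz. The 250 bases before each transcription start were searched in both orientations for the kappaB consensus decamer, the site that NF-kappaB dimers bind. Overlapping matches were joined. At least 1 match lay in a window of 5 of the 7 genes, Nfkbia, Nfkbie, Nfkb2, Rel and Tnfaip3. In the same collection 4.46% of all 27025 genes had one, and 5.51% of the 10475 genes that were tested here. A match is a stretch of letters and does not show binding in these muscles. The Nfkbia window is given whole because it holds the textbook case of an inhibitor placed under the factor it inhibits, with the match in capitals, on chr12:55492648-55492897, minus strand.
Nfkbia promoter: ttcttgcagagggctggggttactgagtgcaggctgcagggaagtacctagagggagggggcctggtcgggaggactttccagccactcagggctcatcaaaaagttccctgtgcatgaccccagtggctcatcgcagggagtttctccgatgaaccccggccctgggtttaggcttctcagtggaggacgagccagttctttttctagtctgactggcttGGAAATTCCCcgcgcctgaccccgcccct
For the other 4 genes, 30 bases around a match are given so that the sites can be compared, matches again in capitals and all written in the direction of the gene. They lie on chr17:45555584-45555613 plus strand (Nfkbie), chr19:46304688-46304717 plus strand (Nfkb2), chr11:23771042-23771071 minus strand (Rel) and, for the more upstream and the start-proximal match of Tnfaip3, chr10:19015516-19015545 and chr10:19015411-19015440, minus strand.
Nfkbie: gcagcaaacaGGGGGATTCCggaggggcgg
Nfkb2: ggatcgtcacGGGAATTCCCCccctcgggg
Rel: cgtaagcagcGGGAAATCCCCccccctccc
Tnfaip3 upstream: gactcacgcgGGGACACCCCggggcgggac
Tnfaip3 proximal: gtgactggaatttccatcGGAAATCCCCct
The printed matches of Nfkb2, which had further ones, and of Rel are 11 bases long because a decamer fits at 2 adjacent positions. The Nfkbia match starts 29 bases before the transcription start, and the proximal match of Tnfaip3 starts 12 bases before it. The windows of Rela and Bcl3 held no match, which says only that these letters are not in those 250 bases. Parts of these 2 windows also occur in annotated transcripts of the same gene, 11 of Rela and 8 of Bcl3. The same holds for the printed Nfkb2 window (8) and, with 1 transcript each, for the printed Rel, Nfkbie and Tnfaip3 windows. Such windows are not upstream of every annotated start. The Nfkbia window had 0 such transcripts.

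All 10 members had lower mean FPKM in HDCKO than in WT muscle. In 9 of 10 every HDCKO value lay below every WT value, and 6 of 10 passed the test across all genes (limma on log2(FPKM + 0.5), Benjamini-Hochberg adjusted p under 0.05), 2 of 5 subunits and 4 of 5 inhibitors including A20. These counts stand beside a background in which 42.6% of all genes tested were called lower and 51.4% had every HDCKO value below every WT value. The median log2 change was -0.94 over the subunits and -1.83 over the inhibitors, against -0.50 over all genes. Without HDCKO mouse 1 these medians were -0.59, -1.14 and -0.37, and with median-of-ratios scaling -0.47, -1.39 and -0.03. The genes called inhibitors here include Nfkbiz (-3.18) and Bcl3 (-2.56), whose nuclear proteins can also activate targets. The median of -1.83 is the value of Nfkbie, which was not called. Nfkbia and Tnfaip3 stood at -1.22 each, and the subunits ran from -1.07 to -0.59. All 10 genes had a mean above the 0.5 FPKM filter, and Nfkbie and Relb alone had an HDCKO library under 1 FPKM.

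**Figure D1:**
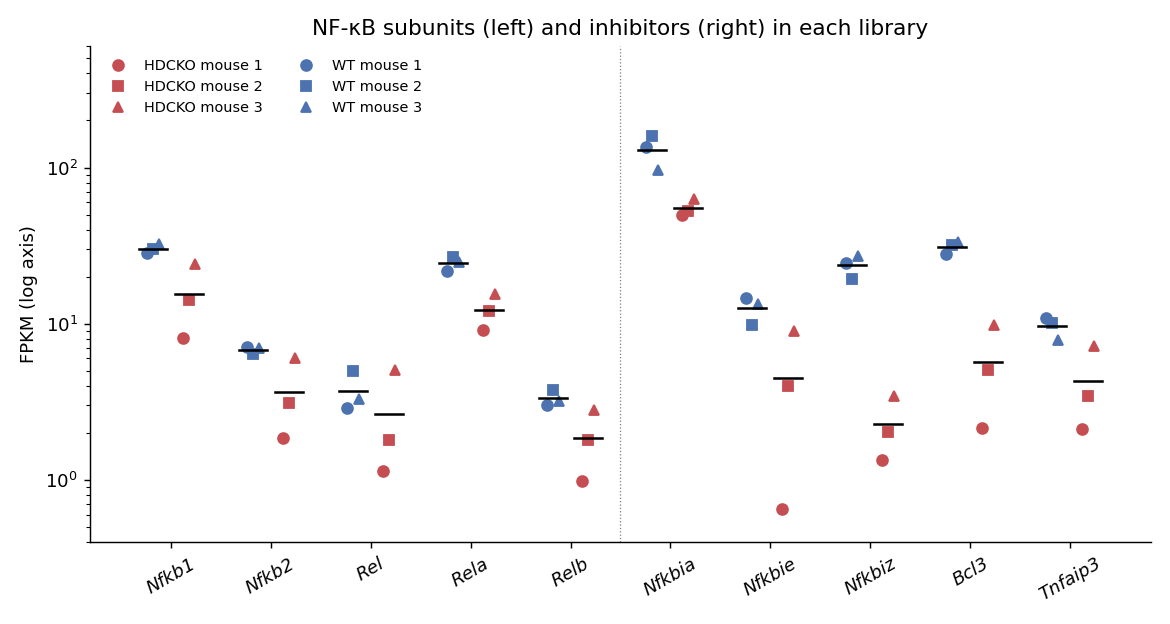
FPKM of each member in each library on a log axis, with HDCKO in red, WT in blue, a marker shape per mouse number and a black line at each group mean. Only Rel has HDCKO and WT values that overlap, and HDCKO mouse 1 is lowest and HDCKO mouse 3 highest among HDCKO for all 10 genes.

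Among the subunits, Rela fell most evenly. Rela encodes p65, the activating subunit of the canonical dimer, found in nearly all cells. It measured 9.13, 11.98 and 15.5 FPKM in HDCKO mice 1, 2 and 3 and 21.8, 26.6 and 25.0 in WT mice 1, 2 and 3. Even the highest HDCKO value was 71.0% of the lowest WT value. Group means were 12.2 ± 3.17 for HDCKO and 24.5 ± 2.47 FPKM for WT (SD, n = 3 each), a log2 change of -1.001 (SE 0.21, limma adjusted p = 0.011). Rela (ENSMUSG00000024927) is on chromosome 19, 5687493 to 5698161, plus strand, in GRCm39, the build of all gene positions given here.

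Nfkb1 encodes p105, the precursor of the p50 subunit that pairs with p65. Its FPKM was 8.05, 14.3 and 24.0 in HDCKO mice 1, 2 and 3 and 28.5, 29.9 and 32.2 in WT. HDCKO mouse 3 stood close under the WT range, at 79.6% of the WT mean, while HDCKO mouse 1 stood at 26.7%. The log2 change of Nfkb1 was -1.07 (SE 0.37, limma adjusted p = 0.046), near the threshold, and it was not called under median-of-ratios scaling (adjusted p = 0.091) or quantile normalization (adjusted p = 0.081). It was also not called when any single library other than HDCKO mouse 3 was left out (adjusted p from 0.061 to 0.12). Nfkb1 (ENSMUSG00000028163) lies on chromosome 3, 135290264 to 135397742, minus strand.

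Nfkb2 and Relb form the dimer of the slower, noncanonical pathway: Nfkb2 encodes p100, the precursor of p52, and Relb its usual partner. Nfkb2 had 1.85, 3.13 and 6.02 FPKM in HDCKO mice 1, 2 and 3 and 7.07, 6.40 and 7.02 in WT. Relb was low throughout, with 0.985, 1.79 and 2.82 FPKM in HDCKO and 3.02, 3.76 and 3.20 in WT. For both, HDCKO mouse 3 lay just under the WT range, at 94.0% of the lowest WT value for Nfkb2 and 93.2% for Relb. Neither passed: the log2 change was -0.94 for Nfkb2 (unadjusted 95% interval -1.83 to -0.05, limma adjusted p = 0.063) and -0.77 for Relb (-1.51 to -0.03, adjusted p = 0.068). Without HDCKO mouse 3 both passed, at -1.33 (adjusted p = 0.0032) and -1.05 (adjusted p = 0.0090), and without HDCKO mouse 1 they stood at -0.59 (adjusted p = 0.11) and -0.47 (adjusted p = 0.12). Nfkb2 lies on the same chromosome as Rela (19, 46292759 to 46303812), 40.6 Mb away.

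Rel was the member whose groups overlapped. It encodes c-Rel, a subunit most abundant in lymphoid and myeloid cells. Rel measured 1.14, 1.80 and 5.03 FPKM in HDCKO mice 1, 2 and 3 and 2.90, 5.004 and 3.30 in WT mice 1, 2 and 3. HDCKO mouse 3 had the highest value of all 6 libraries and the other 2 HDCKO mice the lowest. The log2 change was -0.59 (unadjusted 95% interval -1.73 to 0.55, limma adjusted p = 0.30). Leaving out HDCKO mouse 3 brought it to -1.09 (adjusted p = 0.015), and leaving out HDCKO mouse 1 to -0.22 (adjusted p = 0.68). HDCKO mouse 3 was also the library with the highest sum of B cell markers (234 FPKM) and of T and NK cell markers (67.5 FPKM). HDCKO mouse 2 had 77.5 and 39.4 FPKM of the same markers with Rel at 1.80. In WT the B cell markers summed to 1.34 to 2.35 FPKM. Among HDCKO, mouse 3 also had the highest sums of macrophage markers (2208 FPKM) and dendritic cell markers (48.0 FPKM). Macrophage markers summed to 2302 to 3012 FPKM in WT. The part of lymphoid and myeloid cells in the Rel values was not tested.

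The largest differences among the inhibitors, and among all members, were in the genes for nuclear I-kappaB proteins. Nfkbiz encodes I-kappaB zeta, a nuclear cofactor that binds p50 and is needed for a second wave of inflammatory genes, Il6 among them. It had 1.35, 2.02 and 3.45 FPKM in HDCKO mice 1, 2 and 3 and 24.5, 19.4 and 27.2 in WT. All 3 HDCKO values were far under the WT range, the highest at 17.7% of the lowest WT value. The means of Nfkbiz were 2.27 ± 1.07 and 23.7 ± 3.94 FPKM (SD, n = 3 each), or 9.59% of WT. The log2 change was -3.18 (SE 0.30, limma adjusted p = 8.4e-04), and 1.78% of all genes tested had a lower change. Nfkbiz (ENSMUSG00000035356) lies on chromosome 16, 55631738 to 55659262, minus strand.

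Bcl3, the other nuclear I-kappaB protein of the set, binds p50 and p52 dimers and can activate or repress their targets. It had 2.14, 5.03 and 9.86 FPKM in HDCKO mice 1, 2 and 3 and 28.1, 31.7 and 33.2 in WT. The WT values lay within a narrow range, and the highest HDCKO value was 35.0% of the lowest of them. Mean Bcl3 in HDCKO was 18.3% of WT, with a log2 change of -2.56 (SE 0.47, limma adjusted p = 0.0073). Bcl3 (ENSMUSG00000053175; chromosome 7, 19541553 to 19557570, minus strand) is separated by 178 kb from Relb (19339017 to 19363425), which did not pass. A further nuclear member outside the set, Nfkbid, which encodes I-kappaB NS, had 0.0381, 1.13 and 1.74 FPKM in HDCKO while WT had 3.70, 5.13 and 4.38 (a change of -1.96 on the log2 scale, SE 0.53, adjusted p = 0.021). All 3 genes for nuclear I-kappaB proteins examined here were thus called lower, beside 42.6% of all genes, but Nfkbid was not called without HDCKO mouse 2 or without any single WT mouse.

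Nfkbia encodes I-kappaB alpha, the inhibitor that is degraded and rebuilt within each pulse of signalling, and it was the most abundant member in every library. It had 49.4, 52.8 and 62.4 FPKM in HDCKO mice 1, 2 and 3 and 134, 159 and 96.8 in WT mice 1, 2 and 3. The 3 HDCKO mice were alike, differing by 1.26-fold from lowest to highest, whereas the other 9 members differed by 1.69-fold to 13.6-fold. Mean Nfkbia in HDCKO was 42.2% of WT, with a log2 change of -1.22 (SE 0.22, limma adjusted p = 0.0072). It was the member whose HDCKO spread was smaller than its WT spread (1.64-fold). Nfkbia (ENSMUSG00000021025) is a short gene on chromosome 12, 55535332 to 55539432, minus strand, and its promoter is the one printed whole above.

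Nfkbie encodes I-kappaB epsilon, a cytoplasmic inhibitor that is induced late. It ran from 0.656 in HDCKO mouse 1 to 3.98 in mouse 2 and 8.95 in mouse 3, with 14.7, 9.85 and 13.5 FPKM in WT. HDCKO mouse 1 held 5.17% of the WT mean and HDCKO mouse 3 70.6%. With that spread the log2 change of -1.83 did not pass (SE 0.73, unadjusted 95% interval -3.61 to -0.05, limma adjusted p = 0.069), and it was -2.52 (adjusted p = 0.012) without HDCKO mouse 3 and -0.9996 (adjusted p = 0.062) without HDCKO mouse 1. The cytoplasmic relative outside the set, Nfkbib (I-kappaB beta), had 8.41, 11.7 and 9.19 FPKM in HDCKO and 11.1, 11.9 and 12.3 in WT, a log2 change of -0.27 (adjusted p = 0.18).

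Tnfaip3 encodes A20, an enzyme that edits ubiquitin chains and shuts off signalling upstream of the I-kappaB kinases. It had 2.13, 3.43 and 7.24 FPKM in HDCKO mice 1, 2 and 3 and 10.9, 10.1 and 7.82 in WT mice 1, 2 and 3. HDCKO mouse 3 was at 92.6% of the lowest WT value, so the groups were separated by a small gap. The log2 change was -1.22 (SE 0.40, limma adjusted p = 0.039). It was no longer called under median-of-ratios scaling (adjusted p = 0.067), nor without any one library other than HDCKO mouse 3 (adjusted p from 0.071 to 0.11). Tnfaip3 (ENSMUSG00000019850) lies on chromosome 10, 18874201 to 18891405, minus strand.

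**Figure D2:**
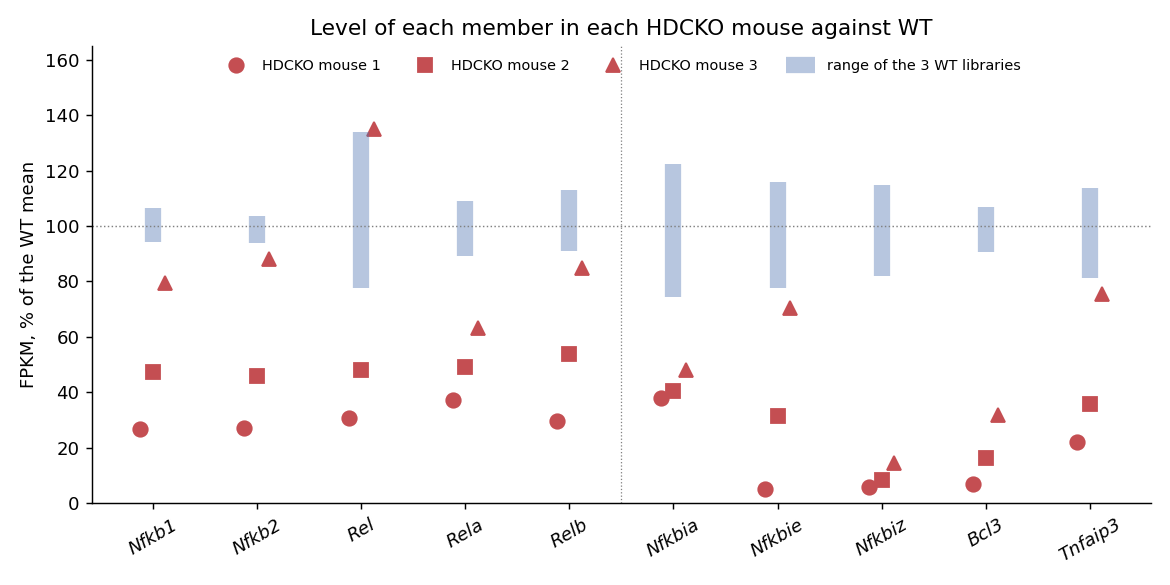
FPKM of each member in each HDCKO mouse as a percentage of the WT mean, with the range of the 3 WT libraries as a blue bar. Nfkbiz is at 5.70% to 14.5% of WT in all 3 HDCKO mice, Nfkbia at 38.0% to 48.0%, and Rel runs from 30.6% to 135%.

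The spread among HDCKO mice ran the same way in every member. HDCKO mouse 1 had the lowest and HDCKO mouse 3 the highest HDCKO value for all 10 genes, an arrangement found in 57.0% of all genes tested and in 82.0% of the 5658 genes called lower. The summed macrophage, endothelial, fibroblast, B cell, T and NK cell and dendritic cell markers had it too. Summed neutrophil markers did not (32.5, 70.7 and 60.5 FPKM), and summed muscle fibre markers had the opposite one (89457, 75611 and 48837 FPKM). The part of these markers in the spread was not tested. In HDCKO mouse 3, Nfkb2, Relb, Nfkb1, Tnfaip3 and Nfkbie stood at 88.1%, 84.7%, 79.6%, 75.4% and 70.6% of the WT mean. The 3 members that remained under 50% of WT in that mouse were Nfkbia (48.0%), Bcl3 (31.8%) and Nfkbiz (14.5%). With HDCKO mouse 3 left out, all 10 members were called lower, where 55.1% of all genes were, and with any other single library left out 4 were, where 18.9% to 33.3% of all genes were.

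Scaling moved the size of these differences. The deposited FPKM of HDCKO libraries carry a large share of fibre transcripts, and the median log2 change of all genes was -0.50 on them, against -0.03 once libraries were scaled by median of ratios and -0.12 once they were quantile normalized. Among all calls, 29.5% were higher in HDCKO as deposited, 50.5% after scaling by median of ratios and 43.8% after quantile normalizing. All 10 members remained below 0 and below the median of all genes under each of these scalings. With median-of-ratios scaling 4 members were called, Nfkbiz (-2.72), Bcl3 (-2.07), Nfkbia (-0.69) and Rela (-0.49), where 26.1% of all genes were called lower. Quantile normalization called the same 4 and Tnfaip3 (-0.79), where 30.3% of all genes were called lower. Relative to the median of all genes, the change on the deposited values was -2.69 for Nfkbiz and -2.06 for Bcl3, -1.33 for Nfkbie, -0.72 for both Nfkbia and Tnfaip3, and between -0.58 and -0.09 for the 5 subunits.

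**Figure D3:**
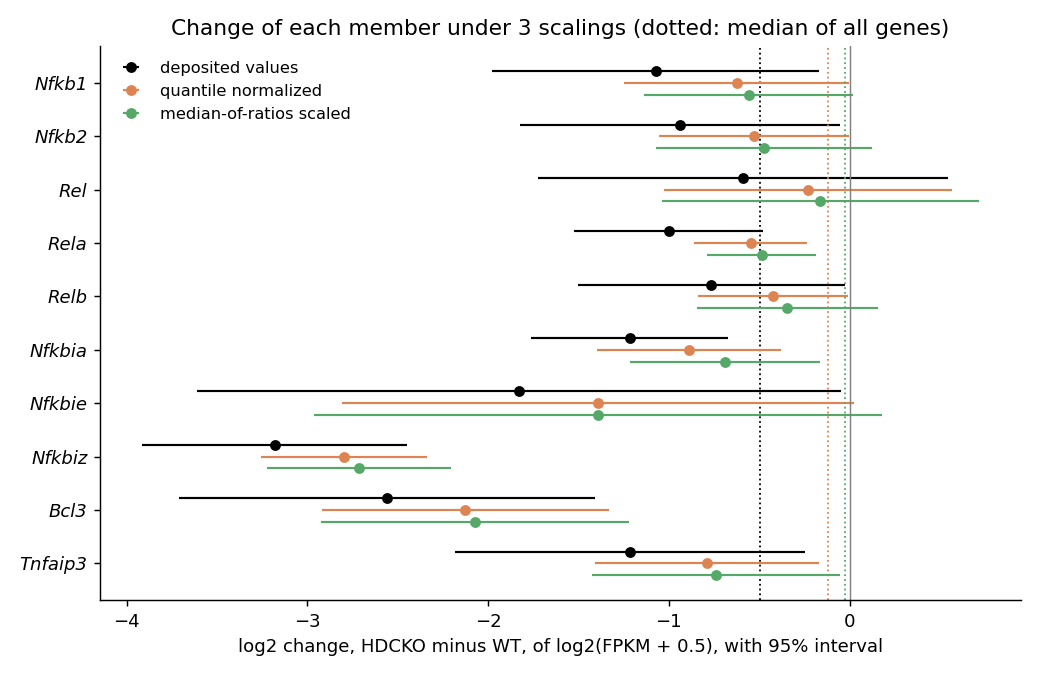
Log2 change (HDCKO minus WT) of each member with its unadjusted 95% interval, on deposited values (black), after quantile normalization (orange) and with median-of-ratios scaling (green). Dotted lines mark the median of all genes under each scaling (-0.50, -0.12 and -0.03); Nfkbiz and Bcl3 lie far left of it under each, Rel close to it.

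Ratios of FPKM within a library are unchanged by any scaling that multiplies a library by 1 factor, and HDCKO and WT were separate in the ratios of the 2 nuclear I-kappaB genes. Each other member was divided by Rela in the same library, and the summed inhibitors by the summed subunits, 10 ratios in all. The ratio of Nfkbiz to Rela was 0.148, 0.169 and 0.223 in HDCKO mice 1, 2 and 3 and 1.12, 0.730 and 1.09 in WT. The ratio of Bcl3 to Rela was 0.234, 0.420 and 0.638 in HDCKO and 1.29, 1.19 and 1.33 in WT. For these 2 of the 9 ratios to Rela every HDCKO value lay below every WT value, as for 14.7% of all genes set against Rela (log2 difference -2.44 and -1.68, exact two-sided permutation p = 0.1 each, the smallest that 3 against 3 allows, and 0.5 adjusted over the 10 ratios). The ratio of Nfkbia to Rela was 5.41, 4.40 and 4.04 in HDCKO and 6.18, 5.98 and 3.88 in WT (log2 difference -0.19, exact permutation p = 0.5), with groups that overlapped. The ratios of Nfkb1, Nfkb2, Rel, Relb, Nfkbie and Tnfaip3 to Rela overlapped between the groups as well, with log2 differences from -1.10 to 0.29 (exact permutation p from 0.3 to 1). Summed inhibitors stood at 2.63, 2.04 and 1.72 times the summed subunits in HDCKO and at 3.36, 3.21 and 2.52 times in WT (log2 difference -0.52, exact permutation p = 0.2).

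**Figure D4:**
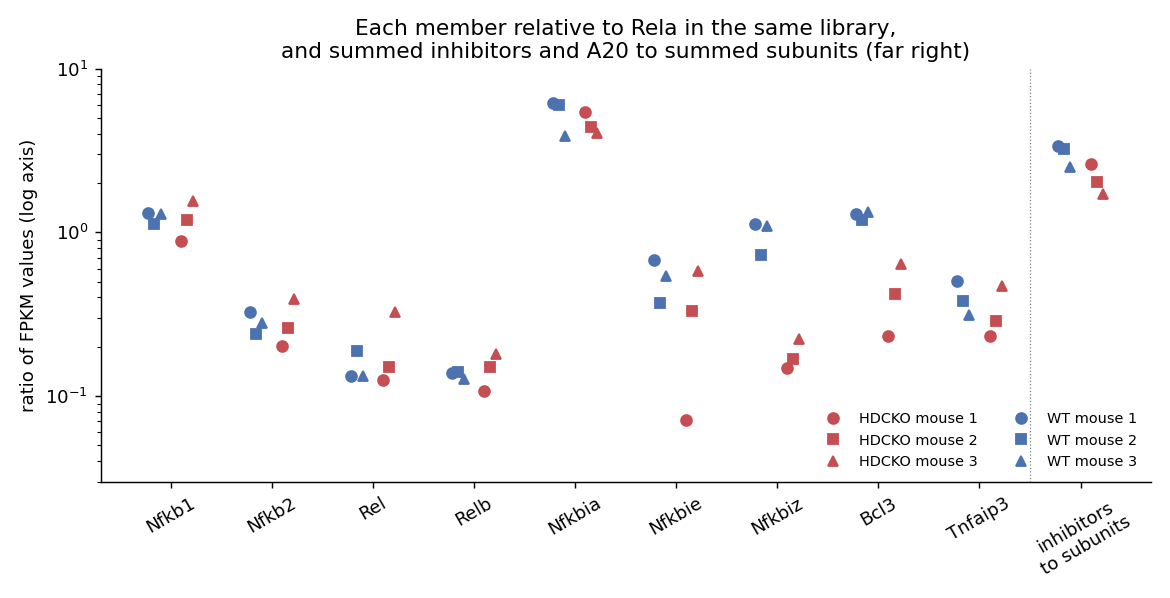
Ratio of each member's FPKM to that of Rela in the same library, and of summed inhibitors and A20 to summed subunits, on a log axis, with HDCKO in red and WT in blue. Nfkbiz (0.148 to 0.223 in HDCKO, 0.730 to 1.12 in WT) and Bcl3 (0.234 to 0.638 and 1.19 to 1.33) are the pairs of groups without overlap.

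The make-up of the subunit pool overlapped between the genotypes. In HDCKO Nfkb1 held 42.1% ± 3.64 of the summed subunit FPKM, against 44.1% ± 2.08 for WT (SD, n = 3 each), and Rela 36.2% ± 7.10 and 35.6% ± 1.37. Rel held 5.41%, 5.45% and 9.42% in HDCKO mice 1, 2 and 3 and 4.59% to 6.98% in WT. In the inhibitor pool, Nfkbia held 88.7%, 78.5% and 67.9% in HDCKO mice 1, 2 and 3 and 63.2%, 69.1% and 54.3% in WT, with groups that overlapped (exact permutation p = 0.2). The share of Nfkbiz was 3.06% ± 0.664 in HDCKO and 11.7% ± 3.40 in WT, and that of Bcl3 7.35% ± 3.44 and 15.2% ± 2.94 (exact permutation p = 0.1 each). In order of mean FPKM, WT muscle had Nfkbia (130), Bcl3 (31.02), Nfkb1 (30.2), Rela (24.5), Nfkbiz (23.7), Nfkbie (12.7), Tnfaip3 (9.60), Nfkb2 (6.83), Rel (3.74) and Relb (3.33). In that order the neighbours Bcl3 and Nfkb1, Rela and Nfkbiz, Nfkbie and Tnfaip3, and Rel and Relb had overlapping libraries. In HDCKO muscle Bcl3 (5.68 FPKM) came after Rela, and Nfkbiz (2.27 FPKM) between Rel and Relb, and all neighbours below Nfkbia (54.9 FPKM) overlapped.

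Members were no closer to each other in pattern than to many other genes. Likeness was measured over the 6 libraries as the root mean square difference of log2(FPKM + 0.5) after centring each gene, with no weight on function. The gene nearest to Rela was Tubgcp3 (0.043) and the gene nearest to Nfkb2 was Gatd1 (0.048). Smarcd2 was nearest to Nfkb1 (0.060), Prdx6 to Nfkbia (0.078), Trafd1 to Rel (0.093), Pdia4 to Bcl3 (0.107) and Ugdh to Nfkbiz (0.128). The closest pair of members was Nfkb1 and Nfkb2 (0.104), with 31 of the 13288 genes tested nearer to Nfkb1 than Nfkb2 was. The number of genes nearer than the nearest member was 87 for Rel and 110 for Nfkbiz. It was highest for Rela, with 1281 genes nearer than Relb (0.176).

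Several genes for the kinases that release NF-kappaB were called lower, at a share near that of all genes under some alternatives. Of 10 genes for I-kappaB kinases, their scaffold and upstream kinases, 6 were called lower and 0 higher, beside 42.6% lower among all genes, with a median log2 change of -0.77. Chuk (IKK alpha, 5.90 ± 1.53 against 12.5 ± 0.716 FPKM, -1.05), Ikbkb (IKK beta, -1.01), the scaffold Ikbkg (NEMO, -0.66) and Map3k14 (NIK, the kinase of the noncanonical pathway, -0.88) fell. The related kinases Tbk1 (-1.39) and Ikbke (2.79 ± 2.79 against 12.04 ± 2.39 FPKM, -2.37) fell too. Map3k7 (TAK1, 11.7 ± 1.56 against 15.0 ± 0.189 FPKM), Tab1, Tab2 and Tab3 did not pass (log2 changes from -0.40 to 0.09, adjusted p from 0.073 to 0.63). With median-of-ratios scaling 3 of these 10 were called lower and 1 higher (26.1% of all genes were lower), and the median was -0.30. The count was 2 of 10 with no filter, with fibre and mitochondrial genes left out of library sums, and without HDCKO mouse 2 or any single WT mouse (18.9% to 25.5% of all genes).

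Partners of A20 and other brakes of the pathway included further genes with large differences. Of 11 tested, 8 were called lower and 0 higher, beside 42.6% lower among all genes, with a median log2 change of -0.75. With median-of-ratios scaling 5 were called lower, beside 26.1%, and 5 also without HDCKO mouse 2 (18.9%) or without WT mouse 2 (23.5%). Zc3h12a (Regnase-1, an RNase that degrades inflammatory mRNAs) had 1.98, 3.08 and 3.15 FPKM in HDCKO mice 1, 2 and 3 while WT had 23.0, 15.5 and 15.3 (a change of -2.51 on the log2 scale, SE 0.24, adjusted p = 8.9e-04). Irak3 (IRAK-M, a brake on Toll-like receptor signalling in macrophages) had 3.07, 5.95 and 5.70 FPKM in HDCKO and 20.6, 20.5 and 18.8 in WT (-1.97, adjusted p = 0.0024). In both genes HDCKO mouse 3 was about as low as mouse 2 and far under every WT library. Tnip2 (ABIN-2, -1.44), N4bp1 (-1.50), Itch (-1.07), Tax1bp1 (-0.72), Tollip (-0.64) and Otulin (-0.75) fell by less. Tnip1 (ABIN-1, -0.53), Cyld (-0.21) and Rnf11 (0.15) did not pass (adjusted p = 0.11, 0.54 and 0.68). Tnip3 did not reach the filter, with 0.0154 to 0.169 FPKM in HDCKO and 0.0715 to 0.515 in WT.

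Adaptors and target genes were called lower about as often as genes in general on the deposited values, and more often with median-of-ratios scaling. Of 18 adaptors and ubiquitin ligases reported here, 8 were called lower (44.4%, near the 42.6% of all genes), with a median of -0.70. Card9 (an adaptor of myeloid lectin receptors, -3.07), Ripk1 (-1.66), Myd88 (-2.62) and Bcl10 (-1.55) had the smallest p among those that fell. Of 23 known NF-kappaB target genes tested, 10 were called lower (43.5%, likewise near the background) and 1 higher. The median log2 change of the targets was -1.13, against -0.50 over all genes. The 4 with the smallest p were Cxcl1 (-6.87), Il6 (-6.92), Ier3 (-3.78) and Ptgs2 (-5.30), each beyond any member in size. Cd83, a surface protein of activated dendritic and B cells, was the 1 higher, with 1.44, 5.23 and 13.9 FPKM in HDCKO and 0.336 to 0.793 in WT (2.46, adjusted p = 0.025); it was named after its values were seen. The B cell marker sum was likewise highest in HDCKO mouse 3 (234 FPKM), and its part in the Cd83 value was not tested. Other targets, likewise named after their values were seen, were on neither side: Sod2 had a log2 change of 0.49 (adjusted p = 0.22), Vcam1 -0.67 (adjusted p = 0.43) and Irf1 -0.89 (adjusted p = 0.21). Cd83 was not called without HDCKO mouse 2 or without any single WT mouse, where 0 of these pathway genes were called higher. With median-of-ratios scaling 7 of the 18 adaptors and 9 of the 23 targets were called lower, and 1 of each higher. There 26.1% of all genes were called lower. Without HDCKO mouse 2 the counts called lower were 5 adaptors and 10 targets, beside 18.9% of all genes.

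**Figure D5:**
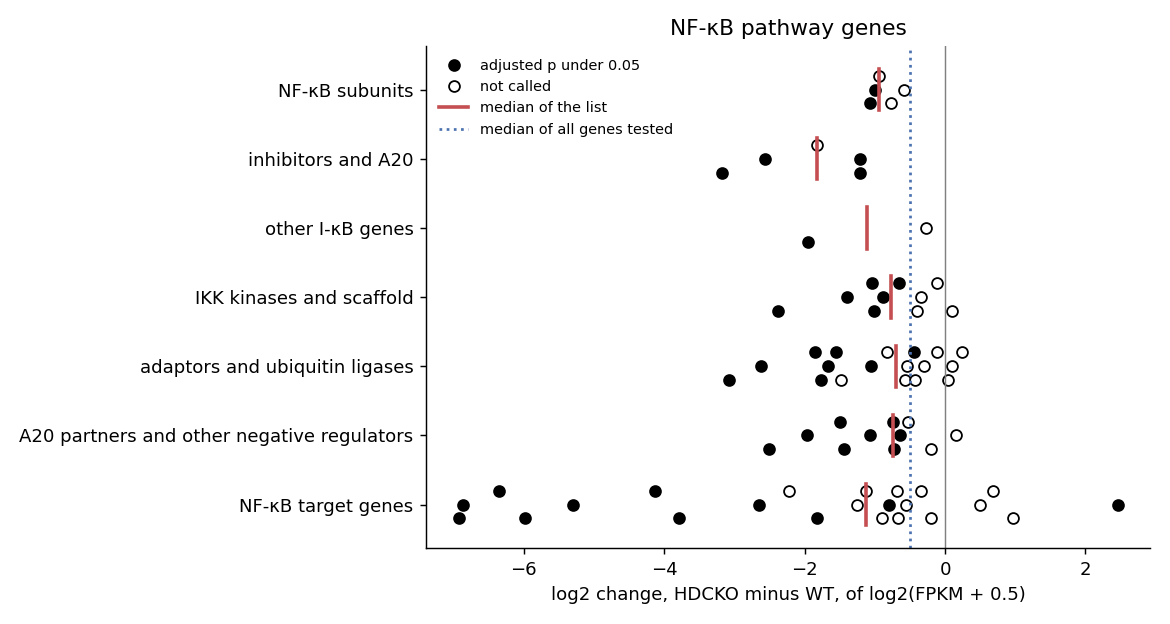
Log2 change (HDCKO minus WT) of each tested gene of the NF-kappaB pathway by list, filled where the adjusted p was under 0.05, with the list median in red and the median of all genes (-0.50) dotted. Among them, target genes spread from -6.92 to 2.46, the subunits from -1.07 to -0.59.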

How the data were processed

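The authors deposited 1 table of FPKM values, converted from counts per the labels. FastQC 0.11.9, HISAT2 2.1.0, HTSeq 0.11.2, STAR 2.7.11b and DESeq2 1.22.2 on GRCm39 are named in the submitters' processing notes. The sources used here do not say which aligner gave these values or how strand and shared reads were handled. Depth is unknown. HDCKO and WT were compared with limma-trend (limma 3.58.1, R 4.3.3) on log2(FPKM + 0.5). The 13288 genes whose mean reached 0.5 FPKM entered, with Benjamini-Hochberg adjustment over all of them. The fit was checked on simulated data. Changes are damped near 0. Ratios and shares were tested by exact two-sided permutation over 6 libraries. Gene positions come from GENCODE M39 (GRCm39), promoters from RefSeq (GRCm38.p6). The members and lists were chosen with earlier results of these data known. Named were all members, Hdc, all other I-kappaB, kinase and A20 partner genes, and the 4 smallest p among called adaptors and among called targets. The targets Cd83, Sod2, Vcam1 and Irf1 were named outside that rule, after their values were seen. Likeness named the 2 nearest genes per member, of which the first of some is given. Of the listed markers, Trbc1 was not matched, and 1 adaptor gene of the lists is not reported here and left out of their counts. Other scalings, pseudocounts, filters, a mouse number block, library weights and each library left out were tried.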

Additional observations from a re-analysis of the deposited data

How the results depend on the processing

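Nfkbiz, Bcl3, Nfkbia and Rela stayed lower and called under all 16 alternatives, Nfkb1 and Tnfaip3 under 7 of 16, and Nfkb2, Relb, Rel and Nfkbie, not called at first, were called under 2 of 16 (without HDCKO replicate 3 and with sample weights); no member changed sign. Members called lower numbered 10 with sample weights, where 58.1% of all genes were called lower. The weights were 4.68 on HDCKO replicate 2 against 0.343 and 0.170 on replicates 1 and 3. They were estimated gene by gene, a choice made after seeing the data. With 1 library left out 4 to 10 members were called lower, where 18.9% to 55.1% of all genes were. Genes called lower numbered 3457 with median-of-ratios scaling, 3390 with fibre and mitochondrial genes left out of library sums and 2507 to 7288 with 1 library left out (without HDCKO replicate 3 the highest, without HDCKO replicate 2 the lowest); genes called higher ran from 1753 to 2455 with 1 library left out and were 3532 with median-of-ratios scaling, 3318 with those genes out of the sums, 3134 after quantile normalization and 3064 with sample weights. Pathway genes called lower were 33 at first, where 42.6% of all genes were called lower. Their number ran from 22 to 48 with 1 library left out, where the share of all genes ran from 18.9% to 55.1%. Those called higher, 1 at first (17.8% of all genes), were 0 with no filter and 3 with median-of-ratios scaling. They were 2 each with quantile normalization, with sample weights and with fibre and mitochondrial genes left out of library sums, and 0 to 3 with 1 library left out.

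With 1 library left out, the log2 difference of the ratio to Rela ran from -2.64 to -2.31 for Nfkbiz, -2.02 to -1.30 for Bcl3, -1.73 to -0.23 for Nfkbie, -0.41 to -0.07 for Nfkbia, -0.59 to -0.09 for Tnfaip3, -0.27 to 0.14 for Nfkb1, -0.28 to 0.19 for Nfkb2, -0.12 to 0.57 for Rel and -0.10 to 0.28 for Relb, and from -0.68 to -0.38 for inhibitors to subunits; the cause of the sign changes was not tested. Deviations of same-numbered libraries correlated at 0.122, 0.067 and 0.138. For HDCKO replicates 1 and 3 this was the highest of their correlations with WT, while HDCKO replicate 2 correlated best with WT replicate 1 (0.112). Each WT library, in turn, correlated best with the HDCKO library of the same number. These low values do not settle whether mouse numbers pair the libraries. With the replicate block 5 members were called lower, all but Tnfaip3 (adjusted p = 0.066) of the 6, and 5089 genes were called lower and 2081 higher. Values under 1 FPKM rest on an unknown, small number of fragments.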
